A study of Mus musculus with 2 samples.

Results

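The CD47 receptor SIRPα, its ligand CD47 and 8 further receptors of myeloid cells that mostly dampen activation were followed as one set of genes, *Sirpa*, *Cd47*, *Pirb*, *Lilrb4a*, *Pecam1*, *Clec12a*, *Cd300a*, *Cd300lf*, *Cd300lb* and *Cd200r1*. The set was given by name, and all 10 symbols were found among the 32285 genes of the count tables. The tables come from single-cell RNA sequencing of macrophages taken from mouse hearts 3 days after myocardial infarction (MI). The sort kept cells positive for CD45, CD11b and CD64 out of infarct and border zone tissue. One library came from wild type (WT) mice and the other from mice labelled CD40 KO, in which the costimulatory receptor CD40 is knocked out, so that each of the 2 groups is 1 library. The latter is called the KO-labelled library below. All mice of both groups had an infarct, and no uninjured heart is among the samples used here. The sources used here do not give the allele, the age or sex of the mice, or how many mice were pooled.

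SIRPα carries immunoreceptor tyrosine-based inhibitory motifs (ITIMs) in its cytoplasmic tail. When it binds CD47 on another cell it recruits the phosphatases SHP-1 and SHP-2 and restrains phagocytosis, which is why CD47 is known as a "don't eat me" signal. PIR-B, gp49B (the product of *Lilrb4a*), PECAM-1, CLEC12A, CD300A and CD300LF also act through ITIMs, whereas CD200R1 has none and signals through DOK adaptors. CD300LB is the exception to the inhibitory label: it pairs with the activating adaptors DAP12 and DAP10. In an infarct, macrophages engulf large numbers of dying cells, so receptors that set the threshold for phagocytosis and activation are of interest there.

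The WT library held 10624 cell barcodes and 139343516 unique molecular identifiers (UMIs, each counting 1 captured molecule), and the KO-labelled library 8146 and 90057108. The median was 9353.5 and 5346.5 UMIs per barcode, the shallowest deposited barcode had 500 and 1618 UMIs, and 23 barcode sequences occurred in both libraries. Filters and the removal of doublets left 7249 and 7404 barcodes in 14 clusters. Clusters 1 to 5 were monocyte/macrophage-like, with 5127 WT and 2311 KO-labelled barcodes. Each of the 16 macrophage markers was detected in this class in both libraries, and their summed level was lower in the KO-labelled one. The libraries stood apart in cluster 9, which took up 4347 KO-labelled barcodes (58.7%) and 35 from WT and was given no cell type name. It held macrophage transcripts: 4345 of its KO-labelled barcodes passed a macrophage marker gate on single barcodes, and the median of the macrophage markers in it was 523 CPM. It was shallow, at a median of 2352 and 3205 UMIs per barcode against 11670 and 15284 in the class. The gate held 6483 WT and 7216 KO-labelled barcodes in all. With the gate in place of the class *Sirpa* had a log2 ratio of −0.61 in place of −0.56 and *Pecam1* 0.62 in place of 0.93. *Cd40* stood at 17.3 CPM (counts per 1000000 UMIs) in the class in WT and at 15.3 CPM in the other library, and since the assay reads the 3′ end of transcripts this does not check the knockout. Every direction below is therefore between libraries as labelled.

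Levels are UMIs summed over a cell type and scaled to CPM, with exact Poisson 95% intervals in parentheses. Neither group has a replicate, so no test between groups was made and intervals cover counting error only. A level of one gene is not set against that of another. Types with fewer than 20 barcodes in a library (endothelial-like, B-like and T or NK-like in the KO-labelled library) are not given there.

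Across cell types 8 of the 10 genes marked myeloid cells, *Cd47* was present in every type, and *Pecam1* was an endothelial transcript. *Sirpa*, *Clec12a* and *Cd200r1* were highest in macrophage-like cells in WT. *Lilrb4a*, *Pirb* and all 3 genes of the CD300 family were highest in neutrophil-like cells. These orders are read from 1 library, and neutrophil-like barcodes were shallow, at a median of 2380 UMIs in WT against 11670 in the macrophage-like class.

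**Figure D1:**
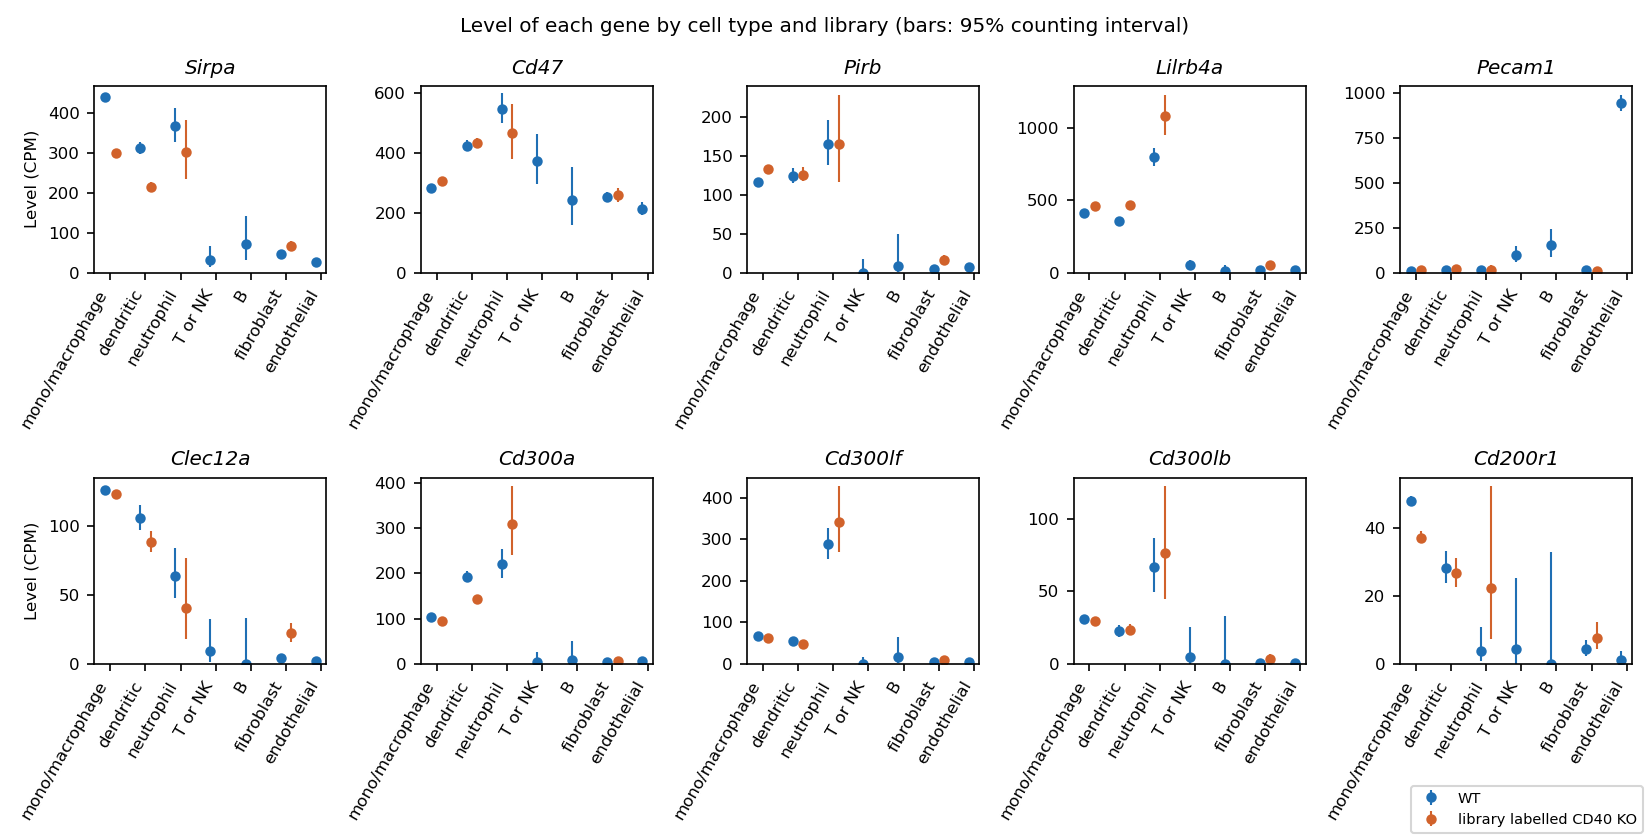
Level of each gene in CPM (linear axis from 0, a different scale in each panel) in 7 cell types, with points for WT and for the KO-labelled library and bars for the 95% counting interval; types with fewer than 20 barcodes in a library have no point there. *Sirpa*, *Clec12a* and *Cd200r1* are highest in macrophage-like cells in WT, the CD300 genes and *Lilrb4a* in neutrophil-like cells, *Pecam1* in endothelial-like cells at 946 CPM, and *Cd47* is above 200 CPM in every type.

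*Sirpa* (ENSMUSG00000037902; chromosome 2, 129592835 to 129632228, plus strand, GRCm38) reached 441 CPM (436 to 446) in macrophage-like cells of WT. Neutrophil-like cells held 368 CPM (327 to 412) and dendritic-like cells 312 CPM (297 to 327), and these 2 intervals met. B-like cells at 71.7 CPM (30.9 to 141), fibroblast-like cells at 46.2 CPM (39.5 to 53.7), T or NK-like cells at 32.0 CPM (12.8 to 65.8) and endothelial-like cells at 26.1 CPM (19.4 to 34.4) formed a low group. Within it the B-like interval overlapped that of fibroblast-like cells, and the T or NK-like interval overlapped both neighbours. In the KO-labelled library macrophage-like cells stood at 299.8 CPM (295 to 305), level with neutrophil-like cells at 301 CPM (233 to 382) and above dendritic-like cells at 215 CPM (203 to 227). Barcodes with 3000 UMIs or more were thinned to 3000 UMIs. Among them 68.4% of macrophage-like barcodes in WT held a *Sirpa* UMI. The share was 6.45% of 155 barcodes in endothelial-like cells, a type that should lack the gene.

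*Cd47* (ENSMUSG00000055447; chromosome 16, 49800533 to 49915010, plus strand) encodes the ligand of SIRPα, a membrane protein of nearly all cells. Its level in WT ran from 214 CPM (194 to 236) in endothelial-like cells to 549 CPM (499.7 to 603) in neutrophil-like cells, the narrowest span of the 10 genes in relative terms. Dendritic-like cells held 425 CPM (407 to 443), T or NK-like cells 374 CPM (298 to 465), macrophage-like cells 285 CPM (281 to 289), fibroblast-like cells 252 CPM (236 to 268) and B-like cells 242 CPM (159 to 352). The dendritic-like and T or NK-like intervals overlapped, as did those of B-like cells with macrophage-like, fibroblast-like and endothelial-like cells. In the KO-labelled library the order neutrophil-like (467 CPM), dendritic-like (434 CPM), macrophage-like (305 CPM) and fibroblast-like (259 CPM) was the same. Both sides of the axis were therefore present in macrophage-like cells: a UMI of *Sirpa* was seen in 93.2% and of *Cd47* in 88.3% of WT barcodes at full depth, and in 68.4% and 55.4% after thinning.

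*Pirb* and *Lilrb4a* belong to the family of leukocyte immunoglobulin-like receptors. *Pirb* (ENSMUSG00000058818; chromosome 7, 3711409 to 3720391, minus strand) encodes a receptor for MHC class I. Its level in WT was 166 CPM (139 to 196) in neutrophil-like, 125 CPM (115 to 134) in dendritic-like and 116 CPM (114 to 119) in macrophage-like cells, the last 2 overlapping, and no more than 8.96 CPM elsewhere. T or NK-like cells held no *Pirb* UMI, which allows up to 16.8 CPM. *Lilrb4a* (ENSMUSG00000112148; chromosome 10, 51490956 to 51496611, plus strand) stood at 797 CPM (736 to 860) in neutrophil-like, 410.3 CPM (406 to 415) in macrophage-like and 356 CPM (340.3 to 373) in dendritic-like cells, and at 50.2 CPM or less in the other types. After thinning, 88.5% of neutrophil-like and 67.8% of macrophage-like barcodes held a *Lilrb4a* UMI, against 5.81% of endothelial-like barcodes.

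Reads of *Lilrb4a* can be split with its neighbour by the authors' counting. Of the 526 words of 75 bases in the last 600 bases of its transcript, 31.7% also occur in *Lilr4b*, and all occur in the read-through gene *Gm49339*, which the count table does not list. For *Pirb* 4.37% of such words occur in other genes, none of them a *Pira* gene, and for the other 8 genes the share was 0. The *Lilrb4a* values are thus uncertain as to how reads shared with *Lilr4b* were assigned.

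The 3 CD300 genes lie in one stretch of chromosome 11 that starts with *Cd300a* (ENSMUSG00000034652, 114890041 to 114904654, plus strand) and *Cd300lb* (ENSMUSG00000063193, 114922781 to 114934386, minus strand) and ends with *Cd300lf* (ENSMUSG00000047798, 115116214 to 115133992, minus strand). CD300A and CD300LF bind lipids exposed on dying cells, among them phosphatidylserine. *Cd300a* stood in WT at 220.0 CPM (189 to 255) in neutrophil-like, 193 CPM (181 to 205) in dendritic-like and 105 CPM (102 to 107) in macrophage-like cells, the first 2 overlapping. *Cd300lf* set neutrophil-like cells further apart, at 288 CPM (252 to 327) against 66.7 CPM (64.9 to 68.6) in macrophage-like and 54.1 CPM (48.0 to 60.8) in dendritic-like cells. *Cd300lb*, the activating member, followed at 66.4 CPM (49.9 to 86.6), 30.9 CPM (29.6 to 32.2) and 22.4 CPM (18.5 to 26.8) in the same 3 types. Outside them the 3 genes stayed at or under 17.9 CPM in WT, a value that rests on 2 UMIs of *Cd300lf* in B-like cells.

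*Clec12a* and *Cd200r1* were low in neutrophil-like cells, unlike the CD300 genes. *Clec12a* (ENSMUSG00000053063; chromosome 6, 129342691 to 129365303, plus strand) encodes a C-type lectin that recognises uric acid crystals. Its WT level was 126 CPM (124 to 129) in macrophage-like, 106 CPM (97.2 to 115) in dendritic-like and 63.9 CPM (47.7 to 83.8) in neutrophil-like cells, 3 intervals that did not overlap. *Cd200r1* (ENSMUSG00000022667; chromosome 16, 44765736 to 44794978, plus strand) encodes the receptor of CD200. It stood at 48.0 CPM (46.5 to 49.6) in macrophage-like and 28.3 CPM (23.9 to 33.3) in dendritic-like cells, and at 3.69 CPM (0.761 to 10.8), from 3 UMIs, in neutrophil-like cells. *Cd200*, its ligand, was an endothelial transcript, at 206 CPM in endothelial-like cells and 2.53 CPM in macrophage-like cells of WT.

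*Pecam1* (ENSMUSG00000020717; chromosome 11, 106654217 to 106750628, minus strand) encodes CD31, an adhesion molecule of endothelium, platelets and leukocytes that binds itself on neighbouring cells. Endothelial-like cells of WT held 946 CPM (903 to 991), B-like cells 152 CPM (88.7 to 244) and T or NK-like cells 95.9 CPM (59.3 to 147), the last 2 overlapping. Dendritic-like cells at 14.4 CPM (11.3 to 18.0), fibroblast-like cells at 14.2 CPM (10.6 to 18.6) and neutrophil-like cells at 12.3 CPM (5.89 to 22.6) could not be told apart. Macrophage-like cells stood at 8.81 CPM (8.15 to 9.51), inside the neutrophil-like interval, and in the KO-labelled library at 16.7 CPM against 8.20 CPM in fibroblast-like cells. In WT 1.93% of thinned macrophage-like barcodes held a UMI against 87.7% of endothelial-like barcodes. *Pecam1* was not used to name the endothelial-like cluster.

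Single cells held several of these transcripts together. In thinned macrophage-like barcodes a median of 3 of the 10 genes had a UMI in both libraries, 1.17% of WT and 1.69% of KO-labelled barcodes had none, and 14.1% and 14.5% had 5 or more. Neutrophil-like barcodes had a median of 4, over 78 and 30 barcodes. Fibroblast-like, endothelial-like and T or NK-like barcodes of WT had a median of 1.

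The comparison of the libraries within the macrophage-like class asked which of the 10 transcripts differed where CD40 is labelled as absent. *Sirpa* was lower in the KO-labelled library, *Cd200r1* was lower to a smaller extent, *Pecam1* was higher, and the other 7 differed by less than 1.15-fold. Genes with a mean level of 10 CPM or more over the libraries were taken as measured, and a ratio of 1.5-fold or more was the size limit. By that rule 1 of the 10 genes was higher, *Pecam1*, and none was lower. Of 7578 measured genes 12.7% passed, 9.25% higher and 3.43% lower. *Pecam1* counted as measured through the KO-labelled library alone, at 16.7 CPM against 8.81 CPM in WT. With cluster shares made equal its log2 ratio was 0.30, under the limit. The median log2 ratio of the 10 genes was −0.06 against 0.10 for all measured genes, with single ratios from −0.56 to 0.93.

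**Figure D2:**
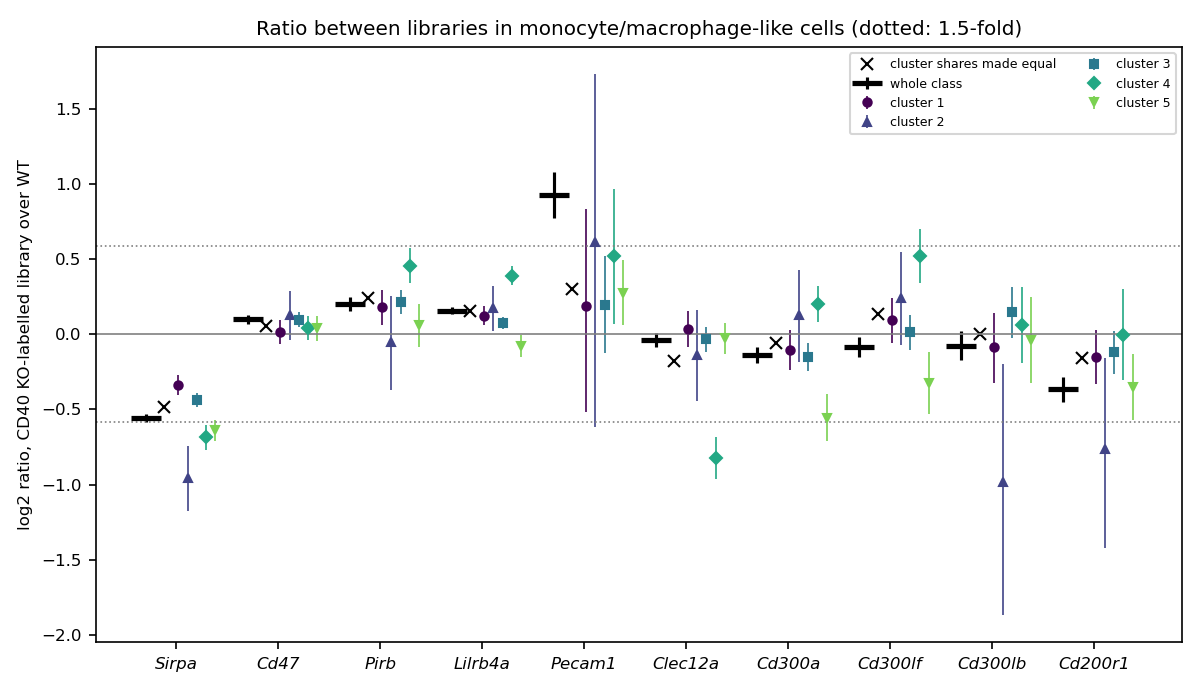
Log2 ratio of the KO-labelled library to WT for each of the 10 genes in the whole macrophage-like class (black bar), with cluster shares made equal (cross) and within clusters 1 to 5 (coloured symbols); vertical lines are 95% counting intervals and dotted lines mark 1.5-fold. *Sirpa* lies below 0 in all 5 clusters, *Pecam1* drops from 0.93 to 0.30 once cluster shares are equal, and *Clec12a* lies well below 0 in cluster 4 alone.

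*Sirpa* had a WT level of 441 CPM against 299.8 CPM in the KO-labelled library, from 33137 and 13968 UMIs. The log2 ratio was −0.56 (−0.59 to −0.53), 1.47-fold lower and just short of the 1.5-fold limit. After thinning, 68.4% (67.1 to 69.7) and 55.0% (52.9 to 57.1) of barcodes held a UMI, so the lower level was also a lower share of barcodes. With median-of-ratios scaling, which moves every ratio by −0.10, the value was −0.65 and passed the limit. Macrophage markers as a group were lower as well. Summed over the 16 markers, the class level was 21001.5 CPM for WT against 14619 CPM for the KO-labelled library, with medians of 629.6 against 410.1 CPM. Whether the *Sirpa* ratio stands apart from that of the macrophage markers was not tested.

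The lower *Sirpa* level was seen within each macrophage-like cluster. Cluster 1, led by the lipid-handling genes *Fabp5*, *Gpnmb* and *Lpl*, held 468 and 369.7 CPM (log2 −0.34, −0.41 to −0.27). In cluster 2, led by interferon-induced *Ifit* genes, the levels were 393 and 202 CPM (−0.96, −1.18 to −0.74), from 223 and 67 barcodes.

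Cluster 3, led by *Areg*, *Ccl24* and *Met*, held 419 and 309 CPM of *Sirpa* (−0.44, −0.48 to −0.39). In cluster 4, led by *Cxcl9*, *Plac8* and *Ly6c2*, it was 395 and 246 CPM (−0.69, −0.77 to −0.60). Cluster 5, led by *Scin*, *Saxo1* and the cycling gene *Top2a*, held 443 and 284 CPM (−0.64, −0.71 to −0.57). With cluster shares made equal between the libraries the class ratio was −0.48. This leaves shifts inside each cluster as they were and does not include cluster 9. The part of composition in the *Sirpa* ratio was not tested. In the 9 finer clusters of the class described below the ratios were all below 0, from −0.76 (−0.89 to −0.63) in the one led by *Saxo1* to −0.12 (−0.22 to −0.03) in the one led by *Fat3*, and the one led by *Ifit3* was at −0.60 (−0.76 to −0.44).

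Beyond the class, *Sirpa* was lower in the KO-labelled library in 10 of the 11 clusters that had 20 barcodes in both. Dendritic-like cells stood at 312 and 215 CPM (−0.54, −0.64 to −0.43), close to the macrophage-like ratio. In neutrophil-like cells the ratio was −0.29 with an interval of −0.69 to 0.10 that included 0. The unnamed clusters 6, 7 and 9 had ratios of −0.34, −0.48 and −0.45. Fibroblast-like cells were the exception, at 46.2 and 67.5 CPM (0.55, 0.21 to 0.88).

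**Figure D3:**
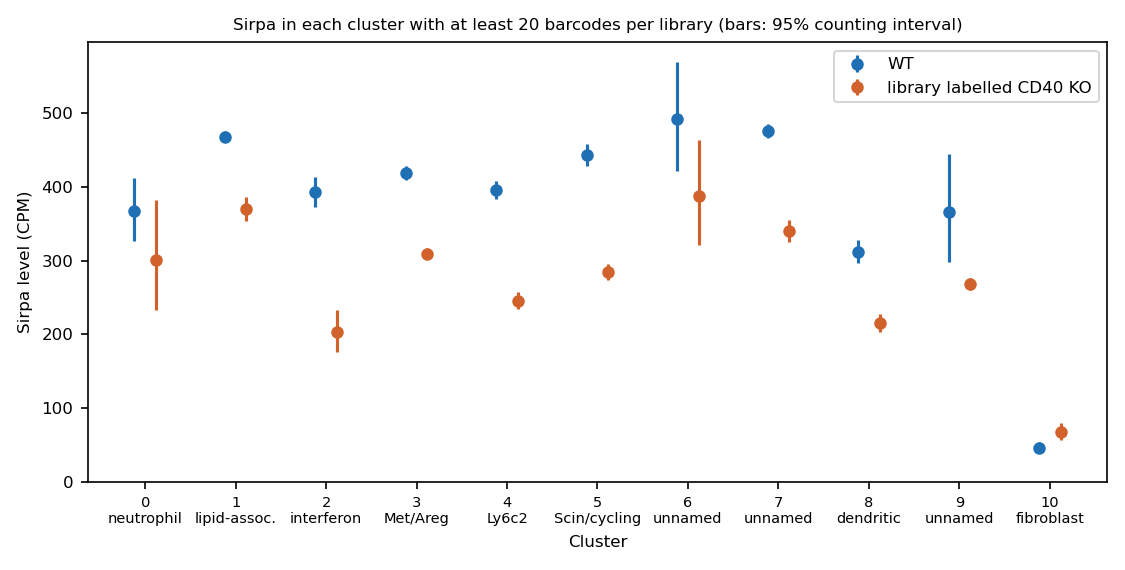
*Sirpa* level in CPM (axis from 0) in the 11 clusters with at least 20 barcodes in each library, as points for WT and for the KO-labelled library with 95% counting intervals. The point of the KO-labelled library lies lower in 10 clusters and higher in the fibroblast-like cluster 10, at 67.5 against 46.2 CPM.

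Being lower in all 5 macrophage-like clusters was common: 21.1% of measured genes were, and *Sirpa* and *Cd200r1* were 2 of the 10. A stricter limit, at least 1.2-fold lower in each of the 5, was chosen after the values were seen. *Sirpa* met it with 478 of 7578 genes (6.31%), and none of the other 9 did. Being higher in all 5 was met by *Cd47* and *Pecam1*, and by 30.9% of measured genes.

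*Cd47* differed little, at 285 and 305 CPM in the class (log2 0.10, 0.07 to 0.13). Its ratios in clusters 1 to 5 lay between 0.02 and 0.13, and in 4 of the 5 the interval included 0. With median-of-ratios scaling the class value was 0.0025, which places *Cd47* at the median gene. Dendritic-like cells held 425 and 434 CPM (0.03, −0.05 to 0.11).

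*Cd200r1* stood at 48.0 and 37.3 CPM (−0.37, −0.45 to −0.28), from 3609 and 1737 UMIs, and 12.7% and 9.60% of thinned barcodes held a UMI. Its level differed between clusters of WT, from 58.6 CPM in cluster 1 to 23.3 CPM in cluster 4, and cluster 1 made up far less of the class in the KO-labelled library (334 of 2311 barcodes against 2490 of 5127). With cluster shares made equal the ratio was −0.16, and this does not include cluster 9. The part of composition in the *Cd200r1* ratio was not tested. Within clusters 1, 3 and 4 the intervals included 0, at −0.15, −0.12 and −0.0022, and in clusters 2 and 5 they did not, at −0.76 (−1.42 to −0.16) and −0.35 (−0.57 to −0.13).

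*Pecam1*, at 8.81 and 16.7 CPM in the class, had the largest ratio of the 10 genes (0.93, 0.78 to 1.08), from 662 and 780 UMIs. It met the 10 CPM minimum through the KO-labelled library alone. The 10 endothelial markers other than *Pecam1* summed to 14.6 CPM in the class in WT and 9.34 CPM in the KO-labelled library. Platelet markers summed to 58.0 and 78.6 CPM, neutrophil markers to 87.5 and 141 CPM and dendritic markers to 46.4 and 65.3 CPM. T or NK markers summed to 105 and 87.5 CPM and B markers to 28.1 and 25.2 CPM. The part of RNA from other cell types in the *Pecam1* ratio was not tested. Within clusters 1 to 5 the ratios were 0.19, 0.61, 0.19, 0.52 and 0.28, with intervals that included 0 in the first 3, and with equal cluster shares the ratio was 0.30. Over all barcodes that passed the filters, endothelial-like cells included, the sign turned, at −0.75.

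Finer clustering of the class showed where the *Pecam1* transcripts were. A cluster led by *Saxo1* and *Scin*, with 91 barcodes in WT and 156 in the KO-labelled library, a few of them from outside the class, held 134 and 75.5 CPM, and the other 8 finer clusters held 3.21 to 22.9 CPM. Its barcodes that belong to the class made up 1.78% and 6.58% of the class and held 32.9% and 35.0% of its *Pecam1* UMIs. Its *Cdh5*, a defining endothelial gene, stood at 1.23 and 2.20 CPM. Inside it *Pecam1* was lower in the KO-labelled library (−0.83, −1.09 to −0.56), the opposite of the class. In the finer clusters led by *Fat3*, by *Cxcl9*, by *Areg*, by *Rgs1* and by *Top2a* it was higher, with log2 ratios of 1.23, 1.85, 0.57, 1.64 and 0.67 and intervals that did not include 0.

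**Figure D4:**
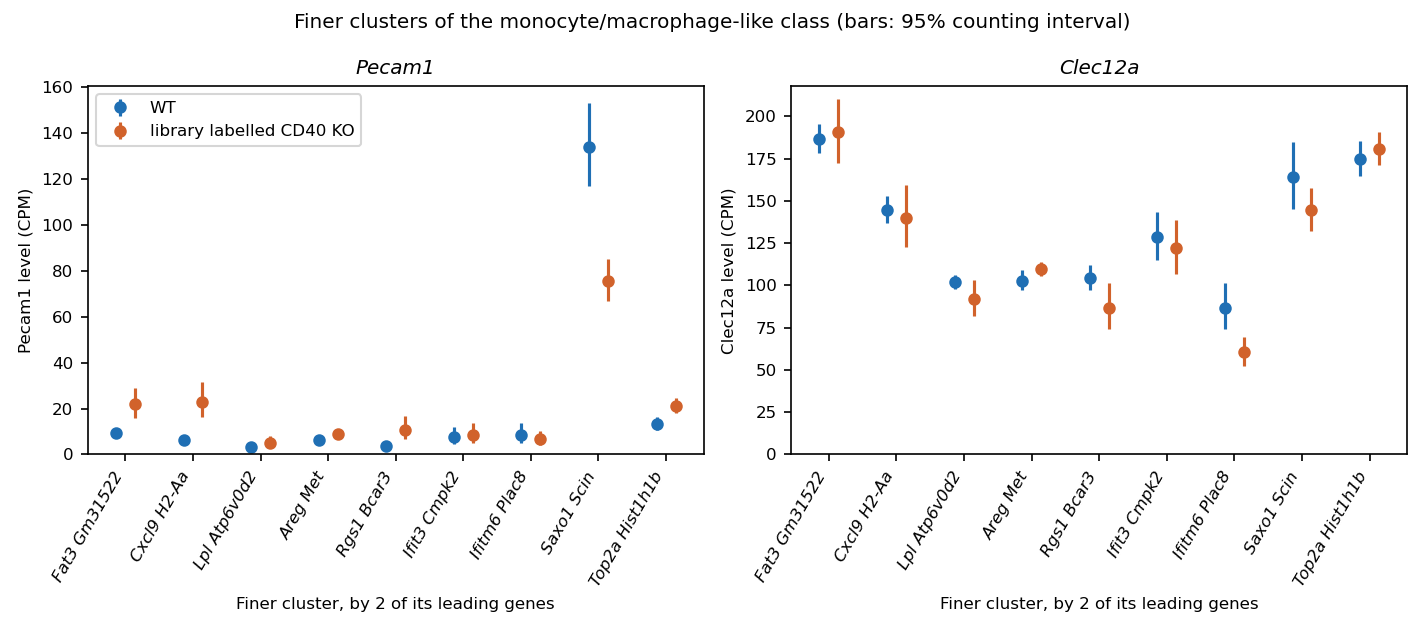
*Pecam1* (left) and *Clec12a* (right) levels in CPM (axes from 0) in 9 finer clusters of the macrophage-like class, each named by 2 of its leading genes, as points for WT and for the KO-labelled library with 95% counting intervals. *Pecam1* peaks in the *Saxo1* and *Scin* cluster at 134 and 75.5 CPM, and *Clec12a* is lowest in the *Ifitm6* and *Plac8* cluster at 86.8 and 60.4 CPM.

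*Clec12a* was level in the class, at 126 and 123 CPM (−0.04, −0.09 to 0.01), but not in cluster 4. There it stood at 155 and 87.7 CPM (−0.83, −0.97 to −0.69), whereas in clusters 1, 2, 3 and 5 the ratios lay between −0.14 and 0.04 with intervals that included 0. Cluster 4 did not hold the same cells in both libraries. The finer cluster with *Ifitm6*, *Plac8* and *Ly6c2*, the last a marker of inflammatory monocytes, among its leading genes made up 19.0% of it in WT and 51.8% in the KO-labelled library, and the one led by *Cxcl9* and *H2-Aa* 58.6% and 23.7%. *Clec12a* was low in the first, at 86.8 and 60.4 CPM (−0.52, −0.83 to −0.21), and equal within counting error in the second, at 145 and 140.0 CPM (−0.05, −0.26 to 0.16). The part of this shift in the cluster 4 ratio was not tested. In dendritic-like cells *Clec12a* stood at 106 and 88.3 CPM (−0.26, −0.44 to −0.09).

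By the size limit, *Sirpa* and *Clec12a* were lower in cluster 4 and *Sirpa* in cluster 5, where 9.79% and 4.18% of measured genes were lower. In cluster 2 *Sirpa*, *Cd300lb* and *Cd200r1* were lower, the last 2 on 15 and 26 UMIs in the KO-labelled library, against 13.5% of measured genes. In clusters 1 and 3 none of the 9 genes measured there passed, against 8.55% and 7.42% of all measured genes. *Pecam1* was under the minimum in both clusters.

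*Pirb* and *Lilrb4a* were slightly higher in the KO-labelled library. *Pirb* stood at 116 and 134 CPM in the class (0.20, 0.15 to 0.25) and *Lilrb4a* at 410.3 and 457 CPM (0.16, 0.13 to 0.18). Both ratios were largest in cluster 4, at 0.46 (0.34 to 0.57) and 0.39 (0.33 to 0.45), the cluster with the shift in composition given above. In cluster 5 *Pirb* was at 0.06 with an interval that included 0 and *Lilrb4a* at −0.08 (−0.15 to −0.0042). Cluster 2 had *Pirb* at −0.05 (−0.37 to 0.26) and *Lilrb4a* at 0.17 (0.02 to 0.32). *Lilrb4a* was higher in dendritic-like cells too, at 356 and 468.5 CPM (0.40, 0.31 to 0.48), where *Pirb* was at 125 and 126 CPM (0.02, −0.13 to 0.17).

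The CD300 genes moved little in the class: *Cd300a* stood at 105 and 95.2 CPM (−0.14, −0.19 to −0.08), *Cd300lf* at 66.7 and 62.8 CPM (−0.09, −0.15 to −0.02) and *Cd300lb* at 30.9 and 29.3 CPM (−0.08, −0.17 to 0.02). They differed by cluster. In cluster 5 *Cd300a* was at 89.2 and 60.8 CPM (−0.55, −0.71 to −0.40) and *Cd300lf* at 48.4 and 38.7 CPM (−0.32, −0.53 to −0.12). In cluster 4 *Cd300lf* was higher, at 52.6 and 75.5 CPM (0.52, 0.34 to 0.70), and *Cd300a* at 134 and 154 CPM (0.20, 0.08 to 0.32). Within the finer cluster led by *Top2a*, which held 65.4% and 55.4% of cluster 5, *Cd300a* stood at 84.5 and 53.2 CPM (−0.67, −0.86 to −0.47). *Cd300lb* had intervals that included 0 in 4 of the 5 clusters, and its ratio of −0.98 in cluster 2 rests on 109 and 15 UMIs.

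Fibroblast-like cells of the KO-labelled library held more transcripts of myeloid receptors than those of WT: *Lilrb4a* stood at 14.2 and 50.6 CPM, *Clec12a* at 4.37 and 22.2 CPM and *Pirb* at 4.65 and 16.4 CPM. In the same cells *Tyrobp*, the myeloid adaptor DAP12, stood at 44.3 and 257 CPM and *Fcer1g*, the Fc receptor gamma chain, at 109 and 286 CPM. *Sirpa*, at 46.2 and 67.5 CPM, moved in the same direction as these. *Cd47*, which fibroblasts themselves express, was level at 252 and 259 CPM. The part of myeloid RNA in the fibroblast-like *Sirpa* ratio was not tested.

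Over 22 profiles, 1 for each cluster and library with at least 50 barcodes, most of the receptors varied together. Correlations below are Pearson's r of log2(CPM + 1), given as a description, since profiles share 2 libraries, a range of depths and a contrast of myeloid with other cells. Among the 45 pairs the highest was *Pirb* with *Lilrb4a* (r = 0.98), followed by *Lilrb4a* with *Cd300lb* (0.97), and *Cd300lf* with *Cd300lb* reached 0.94. *Sirpa* was closest to *Clec12a* (0.92). *Cd47* ranged from −0.01 with *Cd200r1* and 0.25 with *Sirpa* to 0.61 with *Cd300a* and 0.63 with *Cd300lf*. *Pecam1* ran opposite to the other receptors, from −0.63 with *Sirpa* to −0.41 with *Cd300a*.

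The genes most like each member were named over the same 22 profiles, among 8262 genes with a mean of 10 CPM or more. They were *Cotl1* (0.98), *Arl11* and *Arrb2* for *Sirpa*, *Jaml* (0.96), *Sp140* and *Ipcef1* for *Cd47*, *Itgb2* (0.98), *Lilr4b* and *Laptm5* for *Pirb*, and *Cd53* (0.99), *Lilr4b* and *Alox5ap* for *Lilrb4a*. For *Clec12a* they were *Kcnab2* (0.97), *Gpx1* and *Ctsc*, for *Cd200r1* *Nxpe5* (0.95), *Id2* and *P2rx4*, and for *Pecam1* *Fryl* (0.86), *Gimap6* and *Rad21*. In the CD300 family they were *Ptprc* (0.98) and *Sla* for *Cd300a*, *Plek* (0.97), *Clec4d* and *Tlr13* for *Cd300lf*, and *Tlr13* (0.98), *Lilr4b* and *Cd300ld* for *Cd300lb*. By Spearman's rho the 3 leading genes differed for each of the 10, and *Jaml* and *Sp140* for *Cd47* were the most that any member kept.

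Promoter windows are shown for *Pirb* and the 3 CD300 genes, which correlated at 0.90 to 0.97 with one another, and for *Cd47*, at 0.42 to 0.63 with them. RefSeq windows (GRCm38.p6, the 250 bases before a transcript start) were given for 6 of the 10 genes. The starts used for *Cd47*, *Clec12a*, *Pirb* and *Cd300lb* lie inside the gene spans given above. They are thus not the outermost starts of the GENCODE annotation. The letters GAGGAA, a core found in binding sites of the myeloid ETS factor PU.1, were searched on both strands, so that TTCCTC marks a match on the other strand. They occurred for 4 of the 6 genes, 3 times for *Pirb*, 2 times for *Clec12a* and 1 time each for *Cd300a* and *Cd300lf*. None was found for *Cd300lb* or for *Cd47*, which had a further, overlapping window that is not shown. Of all 32851 windows of this length, counted by window and not by gene, 23.3% held a match. Below are 5 of these windows, 5′ to 3′ on the strand of the gene and cut where an annotated exon begins, with matches in capitals. A match is a string of letters and not a measured binding site.
Pirb, chr7:3720392-3720632, minus strand: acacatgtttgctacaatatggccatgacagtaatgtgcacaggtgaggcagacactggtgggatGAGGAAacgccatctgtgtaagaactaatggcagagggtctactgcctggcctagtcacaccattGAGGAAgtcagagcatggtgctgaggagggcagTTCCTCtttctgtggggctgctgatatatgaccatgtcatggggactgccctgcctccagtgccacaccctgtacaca
Cd300a, chr11:114889791-114890040, plus strand: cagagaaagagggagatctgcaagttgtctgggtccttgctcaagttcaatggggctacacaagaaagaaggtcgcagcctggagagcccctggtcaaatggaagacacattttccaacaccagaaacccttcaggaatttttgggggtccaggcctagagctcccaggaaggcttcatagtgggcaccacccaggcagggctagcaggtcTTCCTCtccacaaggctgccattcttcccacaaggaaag
Cd300lf, chr11:115133993-115134242, minus strand: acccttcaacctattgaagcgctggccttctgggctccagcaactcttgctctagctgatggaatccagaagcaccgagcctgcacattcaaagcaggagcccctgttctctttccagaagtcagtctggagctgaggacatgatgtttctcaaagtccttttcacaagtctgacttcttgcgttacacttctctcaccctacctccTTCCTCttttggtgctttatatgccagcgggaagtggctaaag
Cd300lb, chr11:114934387-114934621, minus strand: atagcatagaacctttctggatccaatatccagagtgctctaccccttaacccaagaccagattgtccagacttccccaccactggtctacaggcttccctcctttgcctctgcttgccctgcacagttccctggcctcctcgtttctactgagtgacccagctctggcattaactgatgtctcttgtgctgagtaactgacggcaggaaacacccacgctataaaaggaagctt
Cd47, chr16:49855404-49855632, plus strand: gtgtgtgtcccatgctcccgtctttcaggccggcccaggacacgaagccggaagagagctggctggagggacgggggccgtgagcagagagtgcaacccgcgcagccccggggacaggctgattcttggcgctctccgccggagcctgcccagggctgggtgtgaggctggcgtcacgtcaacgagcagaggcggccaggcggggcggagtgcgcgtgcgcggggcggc

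Other genes of the pathway came from 4 fixed lists and are given for the macrophage-like class, where 9.25% of all measured genes were past the limit higher and 3.43% lower. Among 18 other inhibitory receptors 17 were in the count table under the symbols used, and 9 were measured. Of these 2 were past 1.5-fold higher and none lower, with a median log2 ratio of 0.04. *Havcr2*, which encodes the checkpoint receptor TIM-3, stood at 48.1 and 98.4 CPM (1.03, 0.97 to 1.10), and *Ceacam1* at 8.69 and 14.4 CPM (0.73). *Ceacam1* met the 10 CPM minimum through the KO-labelled library alone, and with equal cluster shares it was at 0.47, under the limit. The lowest were the collagen receptor gene *Lair1*, at 119 and 91.1 CPM (−0.38), and *Vsir*, which encodes VISTA, at 99.6 and 85.5 CPM (−0.22). *Havcr2* was higher within each of the 5 clusters, by 0.53 to 1.42.

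Of 23 paired activating receptors 15 were in the count table under the symbols used, 6 were measured and none passed 1.5-fold. Their range ran from −0.49 for *Cd200r4* to 0.47 for *Pira2*, with *Cd300c2* at −0.29 and *Cd300ld* at 0.38 next to the ends. *Sirpb1c* and *Sirpb1b*, activating relatives of *Sirpa*, stood at 63.0 and 70.8 CPM (0.17) and at 25.0 and 22.2 CPM (−0.17). Within clusters 1 and 5 *Sirpb1b* was at −0.63 and −0.81, lower than *Sirpa* there, in clusters 2, 3 and 4 at 0.20, −0.39 and −0.22, and with equal cluster shares at −0.37.

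Among ligands and modifiers 9 of 11 were measured and 1 was past the limit, *Thbs1*, which encodes thrombospondin-1, a secreted ligand of CD47. It stood at 625 and 1363 CPM (1.13, 1.11 to 1.14), and within clusters 1 to 5 its ratio was 0.51, 0.69, 0.69, 1.33 and 1.26. Neutrophil-like cells held 488 and 1338 CPM of *Thbs1*, fibroblast-like cells 501 and 879 CPM and dendritic-like cells 321 and 500.2 CPM. The protease gene *Adam10* followed at 0.33, and the MHC class I genes *H2-K1* and *H2-D1*, ligands of PIR-B, were lowest at −0.10 and −0.05. *B2m*, on the same list, was higher, at 1001 and 1230 CPM (0.30).

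Of 21 phosphatases, kinases and adaptors 20 were measured, 1 was higher and 3 were lower, with a median of 0.01. *Lyn*, the kinase that phosphorylates ITIMs, stood at 598 and 910.3 CPM (0.61, 0.59 to 0.63), just past the limit, and *Pag1* followed at 0.57. *Lyn* was under the limit with equal cluster shares (0.45) and within clusters 1, 3, 4 and 5, at 0.31 to 0.56, and past it in cluster 2 (1.17). *Dok1*, of the adaptor family through which CD200R1 signals, stood at 28.8 and 14.98 CPM (−0.94, −1.07 to −0.82), *Fcer1g* at 2934 and 1855 CPM (−0.66) and *Inppl1*, the lipid phosphatase SHIP-2, at 33.4 and 21.3 CPM (−0.65). Each of the 3 lower genes was lower in all 5 clusters. Of the same adaptor family as *Dok1*, *Dok2* stood at 85.3 and 64.8 CPM (−0.40) and *Dok3* at 27.8 and 38.7 CPM (0.48). The phosphatases of the SIRPα pathway differed less: *Ptpn6*, which encodes SHP-1, stood at 106 and 97.2 CPM (−0.12) and *Ptpn11*, which encodes SHP-2, at 31.7 and 31.9 CPM (0.01).

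**Figure D5:**
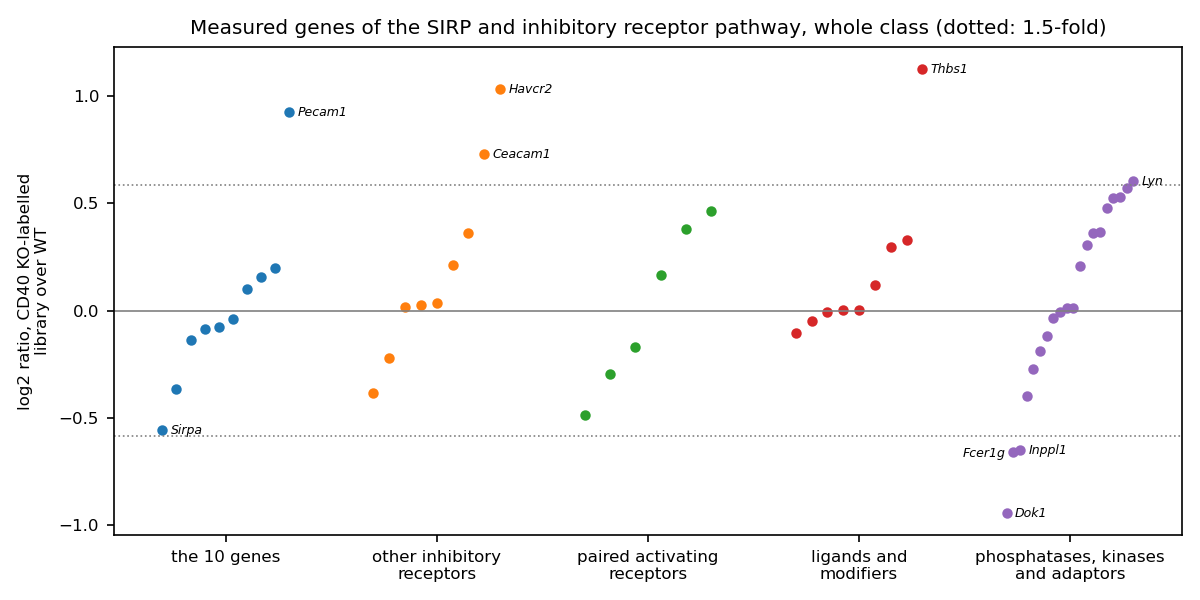
Log2 ratio of the KO-labelled library to WT in the macrophage-like class for the 10 genes and for the measured genes of 4 pathway lists, sorted within each; dotted lines mark 1.5-fold, and genes past it and *Sirpa* are named. *Thbs1* (1.13) and *Havcr2* (1.03) are the highest and *Dok1* (−0.94) is the lowest, and *Sirpa* is the lowest of the 10 genes.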

How the data were processed

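The values are unnormalized UMI counts as deposited by the authors, who used Cell Ranger 7.0.1, per the file headers. Chromium 3′ v3 was the kit, per the labels' protocols. Cell Ranger, STAR and the mouse build mm10 are named in the submitters' processing notes, and counting of intron reads is not stated. The 10 genes, the lists and the alternatives were chosen with earlier results of these data known.

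The filters asked for 1000 UMIs and 500 genes or more and a mitochondrial share of 10% or less, which 8094 WT barcodes and 7930 of the other library met. Those with the highest Scrublet scores, at 0.8% per 1000 barcodes, were removed (903 and 531; Scrublet's own threshold marked 33 and 0). Log values of 2000 variable genes gave 30 components, 15 neighbours and Leiden clusters at resolution 0.6, and finer ones at 1.0 (scanpy 1.11.5, igraph 0.11.9). Clusters were named from fixed markers without the 10 genes, by limits set after the clusters had been seen; a marker gate on each barcode was an alternative. Clusters 6, 7 and 9 stayed unnamed: a shallow one, one with neutrophil genes, and one with 99.2% of its barcodes, at equal library sizes, from 1 library.

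UMIs were summed and scaled to CPM with exact Poisson intervals; ratios have exact conditional (Clopper-Pearson) 95% intervals. Of the class, 155 and 60 barcodes were too shallow for thinning to 3000 UMIs. The text names the 10 members, the 2 highest and 2 lowest measured genes of each list, genes that a member binds or signals through, and the 3 most correlated genes of each member; leading genes of clusters, *Cdh5* and *Inppl1* were named after their values were seen, and a few names that the rule gives are not reported here. Positions came from GENCODE vM21; the authors' annotation may differ. Ratios were tested on simulated data. Further tools were matplotlib 3.10.9, pandas 2.3.3, scipy 1.17.1, numpy 2.4.6, scikit-learn 1.9.0 and Python 3.11.15.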

Additional observations from a re-analysis of the deposited data

Results flagged for a closer look

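For 4 genes the ratio of the KO-labelled library to WT had the opposite sign in another cell type than in the macrophage-like class, with counting intervals that both leave out 0. The difference between the types was not tested, since each rests on 1 library per group. *Sirpa* was at −0.56 in the class and 0.55 in fibroblast-like cells, where its level was 46.2 and 67.5 CPM. *Cd300lf* was at −0.09 and, in fibroblast-like cells, 1.37, from 15 and 22 UMIs. *Cd300a* was at −0.14 and, in neutrophil-like cells, 0.49, at 220.0 and 309.7 CPM. *Cd200r1* was at −0.37 and, in neutrophil-like cells, 2.61, from 3 and 5 UMIs.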

How the results depend on the processing

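No paired analysis was possible because each group has 1 library. Of 20 alternatives *Sirpa*, *Pirb* and *Cd200r1* had the same sign in all 20, *Cd47*, *Lilrb4a* and *Pecam1* in 19, *Cd300a* in 18, *Clec12a* and *Cd300lb* in 16 and *Cd300lf* in 15. Over the 20 *Sirpa* ranged from −0.69 to −0.34, and *Pecam1* reversed to −0.75 when every barcode that passed the filters was used. Cluster 2 alone, with 67 KO-labelled barcodes, was not among the alternatives. There *Sirpa* was at −0.96 and *Pirb* at −0.05 (−0.37 to 0.26). The count of the 10 genes past 1.5-fold, 1 as reported, was 2 with median-of-ratios scaling, with the marker gate, with the unnamed clusters added, within cluster 4 and at 1.3-fold, and 0 with equal cluster shares, within clusters 1 and 3 and at 2-fold. Of all genes 961 passed as reported, 701 higher and 260 lower. Median-of-ratios scaling gave 489 higher and 457 lower. Equal cluster shares gave 631, as did cluster 1 alone, cluster 3 gave 554, a limit of 1.3-fold 2348, of 2-fold 220, and no CPM minimum 10838. Without cluster 9, added after seeing the data, the marker gate gave 1 of the 10 genes and −0.58 for *Sirpa*.

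Low counts limit *Pecam1* in macrophage-like cells, *Cd300lb* and *Cd200r1* in small clusters, and every neutrophil-like value of the KO-labelled library (63 barcodes). With 1 library per group, genotype, mouse and library cannot be told apart.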
